A study of Mus musculus with 27 samples.

Results

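The genes described here are 8 genes of the myeloid lineage: Adgre1, Aif1, Ptprc, Spi1, Irf8, Runx1, Laptm5 and Coro1a. They were taken by name as pan-myeloid genes, from a table of 55487 mouse genes, and all 8 were among the 20271 genes that passed the filter of at least 10 counts in at least 4 libraries. Male C57Bl/6J wild-type mice, 8 weeks old, received a 14-day infusion at 0.25 μl per hour into the right lateral ventricle. The infusate was an IgLON5 antibody pool purified from patient plasma (α-IgLON5#1), a control IgG, or PBS, and RNA-seq was performed on bulk tissue of the contralateral hippocampus and cortex. The labels call the control a non-reactive monoclonal human IgG, whereas the study's methods describe serum IgG of a healthy donor, and it is called control IgG here. The 27 libraries fall into PBS (n = 5 cortices and 5 hippocampi), control IgG (n = 5 cortices and 4 hippocampi) and IgLON5 antibody (n = 4 cortices and 4 hippocampi). Mice are named by the number in their sample titles, which the labels do not explain. Both infused antibodies are human proteins given to mice.

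Myeloid cells of the brain are mainly microglia, the resident macrophages of the parenchyma, joined by macrophages of the meninges and vessels and, under inflammation, by monocytes from the blood. PU.1, encoded by Spi1, is the ETS-family transcription factor that sets the myeloid program, and IRF8 and RUNX1 act with it during the development of macrophages and microglia. Adgre1 (F4/80) and Aif1 (Iba1) are the genes behind the antibodies most used to stain macrophages and microglia in tissue. Ptprc (CD45), Laptm5 and Coro1a are shared by nearly all leukocytes, and CD45 is low on resting microglia and higher on cells from the blood.

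The starts of these genes were read from RefSeq promoter windows of GRCm38.p6, each running from 250 bases before a transcription start to 50 bases after it. Windows were found for 6 of the 8 genes, 10 windows in all, and none was found for Adgre1 and Spi1. On both strands, GAGGAA, the ETS core bound by PU.1, was present in 4 of the 10 windows and in 28.3% of all 32851 windows. TGTGGT or TGCGGT, the RUNX core, was present in 2 of the 10 and in 22.4% of all windows. The ETS-IRF composite element was found in 0 of the 10 and in 2.72% of all windows. The GAGGAA matches lie in windows of Aif1, Ptprc, Runx1 and Laptm5, and the RUNX matches in other windows of Runx1 and Irf8. The stretches below show the GAGGAA matches (in capitals, TTCCTC where the match is on the other strand), because this is the core that the product of Spi1 binds. The stretch before a start of Coro1a and of Irf8, in which none of these motifs was found, is given beside them. A match describes these letters, and binding was not measured. The Ptprc stretch is chr1:138175307-138175555, the Runx1 stretch is chr16:92697330-92697579 (the second Runx1 window) and the Coro1a stretch is chr7:126704817-126705066, all on the minus strand, and the Ptprc, Runx1 and Coro1a starts lie inside the annotated gene. The Irf8 stretch is chr8:120736108-120736357 on the plus strand. None of these stretches holds an exon base in GENCODE M21. For Aif1 (chr17:35176042-35176071, minus strand) and Laptm5 (chr4:130913266-130913295, plus strand), where an annotated transcript begins before the match, 30 bases around it are given.
Ptprc: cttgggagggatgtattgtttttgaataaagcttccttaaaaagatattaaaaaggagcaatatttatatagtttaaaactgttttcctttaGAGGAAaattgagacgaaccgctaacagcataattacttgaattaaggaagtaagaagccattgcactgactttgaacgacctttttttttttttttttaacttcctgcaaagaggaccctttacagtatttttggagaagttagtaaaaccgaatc
Runx1: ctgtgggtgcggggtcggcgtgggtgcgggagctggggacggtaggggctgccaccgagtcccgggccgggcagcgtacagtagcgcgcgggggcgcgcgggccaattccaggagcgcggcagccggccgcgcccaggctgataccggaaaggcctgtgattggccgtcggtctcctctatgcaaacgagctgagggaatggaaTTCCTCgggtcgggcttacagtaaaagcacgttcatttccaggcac
Aif1: ataggcacccagTTCCTCcatcctattgtt
Laptm5: gcagcctgtggcTTCCTCttttttgttctg
Coro1a: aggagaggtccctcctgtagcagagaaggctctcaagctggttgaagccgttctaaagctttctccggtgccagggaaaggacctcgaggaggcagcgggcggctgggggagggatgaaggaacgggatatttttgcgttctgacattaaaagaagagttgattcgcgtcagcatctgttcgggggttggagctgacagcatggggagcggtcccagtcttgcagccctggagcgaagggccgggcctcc
Irf8: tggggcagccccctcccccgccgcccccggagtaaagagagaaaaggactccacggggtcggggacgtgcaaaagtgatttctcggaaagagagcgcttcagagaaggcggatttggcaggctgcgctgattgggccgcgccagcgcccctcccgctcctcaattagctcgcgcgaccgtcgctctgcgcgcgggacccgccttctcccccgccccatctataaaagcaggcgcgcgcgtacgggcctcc

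Total counts ranged from 19385642 to 58550621 per library, and levels are given as CPM, the gene's count scaled to the TMM-normalized library size. The labels list the cell type as neurons, but glial markers were abundant in every group: the summed level of 6 astrocyte genes was 4066 to 6343 CPM and that of 6 oligodendrocyte genes 1691 to 4580 CPM, beside 6403 to 9173 CPM for 8 neuronal genes. A score of cortex-enriched over hippocampus-enriched genes, centred within each tissue, set 2 control IgG hippocampi apart, mouse 10 at 1.03 and mouse 37 at 1.71, whereas the other hippocampi lay between -0.906 and 0.155. The hippocampal results of the 8 genes are therefore also given without both, whereas those of the gene lists below are not. Differences were tested with edgeR's quasi-likelihood test in a fit of all 27 libraries, with p values adjusted over all 20271 genes, and a gene passed at an adjusted p under 0.05. In bulk tissue, more myeloid cells and more RNA of these genes per cell cannot be told apart.

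Adgre1 encodes the adhesion receptor F4/80 (ENSMUSG00000004730.15, chromosome 17, 57358691 to 57483527, plus strand, GRCm38). In the hippocampus, its level was 30.5, 64.5, 51.5 and 24.5 CPM in IgLON5 antibody mice 8, 9, 16 and 17. It was 5.42, 8.18, 7.40 and 6.998 CPM in control IgG mice 10, 15, 37 and 75, and 5.36, 5.25, 4.63, 5.85 and 5.42 CPM in PBS mice 14, 32, 33, 38 and 74. The lowest antibody library lay above the highest control library. Adgre1 rose by a log2 fold change of 2.61 (standard error 0.286) over control IgG, a 6.09-fold difference with a 95% confidence interval of 4.05 to 9.15 (edgeR adjusted p = 1.5e-06), and by 3.01 over PBS (adjusted p = 3.43e-08). In the cortex, the antibody mice stood at 44.2, 62.8, 17.3 and 25.8 CPM. Control IgG cortices (mice 10, 11, 15, 37 and 75) stood at 8.36, 8.36, 7.75, 6.88 and 8.61 CPM, and PBS cortices at 5.42, 6.36, 6.15, 6.94 and 6.52 CPM. The groups did not overlap here either, with a log2 fold change of 2.23 over control IgG (adjusted p = 1.06e-05) and of 2.57 over PBS (adjusted p = 1.1e-06).

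Aif1 encodes Iba1, a calcium-binding protein of the actin cytoskeleton (ENSMUSG00000024397.14, chromosome 17, 35170991 to 35176068, minus strand). Antibody hippocampi stood at 11.2, 31.9, 19.8 and 9.43 CPM in mice 8, 9, 16 and 17. Control IgG hippocampi stood at 4.44, 5.79, 4.35 and 4.30 CPM, and PBS hippocampi at 6.28, 3.86, 3.49, 4.75 and 3.60 CPM. Mouse 9 was the highest and mouse 17 the lowest of the antibody group, and even mouse 17 lay above every control. Aif1 rose by 1.93 on the log2 scale (standard error 0.323) over control IgG, 3.80-fold with an interval of 2.40 to 6.02 (edgeR adjusted p = 0.000344), and by 2.04 over PBS (adjusted p = 4.34e-05). Cortical levels were 13.1, 27.5, 8.76 and 9.67 CPM in the antibody mice, 4.38, 5.70, 5.42, 3.58 and 5.55 CPM with control IgG, and 4.32, 4.79, 4.71, 4.51 and 3.66 CPM with PBS. The log2 fold change was 1.57 over control IgG (adjusted p = 0.00181) and 1.74 over PBS (adjusted p = 0.00053), with no overlap of the groups. With only the hippocampal library of mouse 9 left out, the hippocampal difference to control IgG was 1.51, with only its cortical library left out the cortical difference was 1.09, and both passed (edgeR adjusted p = 0.00265 and 0.0188).

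Ptprc encodes the leukocyte phosphatase CD45 (ENSMUSG00000026395.16, chromosome 1, 138062861 to 138175708, minus strand). It stood at 25.4, 21.7, 24.98 and 16.4 CPM in antibody hippocampi of mice 8, 9, 16 and 17, at 5.52, 7.05, 5.02 and 4.86 CPM with control IgG, and at 4.71, 5.14, 3.81, 3.62 and 4.14 CPM with PBS. In the cortex it was 36.5, 20.5, 10.8 and 13.7 CPM with the antibody, 5.23, 5.004, 5.35, 4.42 and 4.52 CPM with control IgG, and 4.26, 5.32, 4.94, 5.96 and 4.54 CPM with PBS. Mouse 8 was the highest of the antibody group in both tissues, unlike for Adgre1 and Aif1, where mouse 9 was. Ptprc rose by 1.97 over control IgG in the hippocampus (3.92-fold, interval 2.78 to 5.55, edgeR adjusted p = 5.42e-06) and by 2.05 in the cortex (adjusted p = 5.52e-06). Over PBS the log2 fold changes were 2.36 and 2.02 (adjusted p = 1.04e-07 and 3.33e-06).

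**Figure D1:**
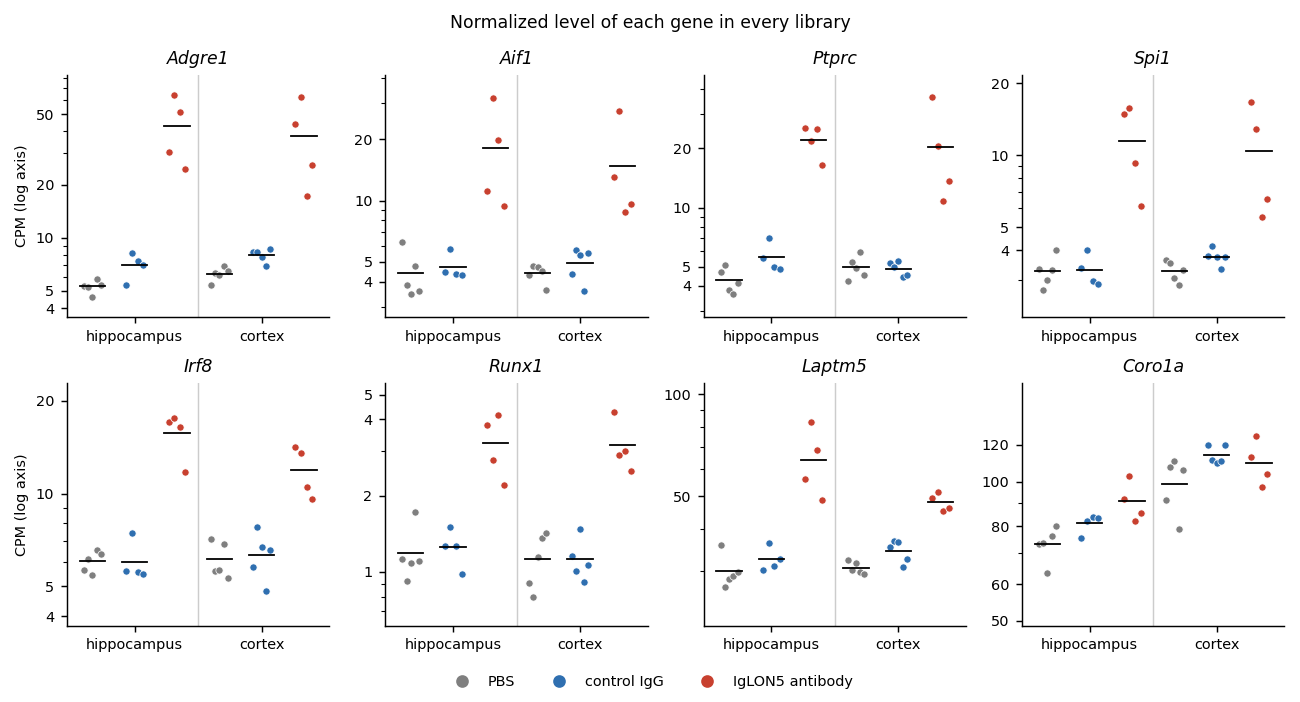
Level of each gene in every library, in CPM on a log axis, by tissue and treatment (points are libraries, black lines group means). For 7 of the 8 genes the IgLON5 antibody libraries lie above all PBS and control IgG libraries of the same tissue, whereas those of Coro1a overlap with control IgG in both tissues.

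The 3 transcription factors moved the same way. Spi1, the gene of PU.1 (ENSMUSG00000002111.8, chromosome 2, 91082390 to 91115756, plus strand), stood at 14.9, 15.8, 9.26 and 6.10 CPM in antibody hippocampi, at 3.37, 4.02, 2.97 and 2.90 CPM with control IgG and at 3.34, 2.74, 3.02, 3.32 and 4.003 CPM with PBS. Mice 8 and 9 formed the upper pair and mice 16 and 17 the lower pair, also in the cortex, where the values were 16.7, 12.9, 5.50 and 6.56 CPM. Cortical controls ranged from 2.87 to 3.63 CPM with PBS and from 3.34 to 4.15 CPM with control IgG. Spi1 rose by 1.78 over control IgG in the hippocampus (edgeR adjusted p = 0.000116) and by 1.47 in the cortex (adjusted p = 0.000602), and by 1.80 and 1.66 over PBS (adjusted p = 2.42e-05 and 0.000122).

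Irf8, an interferon regulatory factor needed for monocytes and microglia (ENSMUSG00000041515.10, chromosome 8, 120736358 to 120756694, plus strand), varied least among the antibody mice of these factors. Its hippocampal level was 17.1, 17.5, 16.5 and 11.8 CPM with the antibody, 5.6, 7.43, 5.54 and 5.48 CPM with control IgG, and 5.66, 6.12, 5.43, 6.56 and 6.36 CPM with PBS. Irf8 rose by 1.38 over control IgG and by 1.38 over PBS (edgeR adjusted p = 1.5e-06 and 2.43e-07). In the cortex the antibody mice stood at 14.2, 13.6, 10.5 and 9.58 CPM, above control IgG (4.85 to 7.77 CPM) and PBS (5.33 to 7.14 CPM). The cortical log2 fold changes, 0.92 and 0.97, were under a fold of 2 but past the threshold (adjusted p = 0.000175 and 7.09e-05).

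Runx1, a runt-domain factor of blood cell development (ENSMUSG00000022952.17, chromosome 16, 92601466 to 92826149, minus strand), was the scarcest of the 8 genes per kilobase of exon, with 19 to 63 counts per control IgG cortex. It stood at 3.79, 2.76, 4.17 and 2.21 CPM in antibody hippocampi, at 1.27, 1.504, 1.26 and 0.982 CPM with control IgG, and at 1.13, 0.919, 1.09, 1.72 and 1.11 CPM with PBS. The groups did not overlap, and Runx1 rose by 1.36 over control IgG and 1.45 over PBS (edgeR adjusted p = 0.000339 and 4.71e-05). Antibody cortices held 4.27, 2.89, 3 and 2.51 CPM, against 0.913 to 1.48 CPM with control IgG and 0.798 to 1.43 CPM with PBS. There the log2 fold changes were 1.47 and 1.48 (adjusted p = 9.98e-05 and 6.13e-05). Runx1 shares 106 exon bases with the antisense gene Gm26626, which held 0 to 3 counts per library.

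Laptm5 and Coro1a, the most abundant of the 8 genes per kilobase of exon, moved least. Laptm5, a transmembrane protein of leukocyte lysosomes (ENSMUSG00000028581.17, chromosome 4, 130913125 to 130936141, plus strand), stood at 56.2, 82.7, 68.5 and 48.7 CPM in antibody hippocampi. Control IgG hippocampi stood at 30.2, 36.5, 31.1 and 32.5 CPM and PBS hippocampi at 35.95, 26.99, 28.4, 29.2 and 29.98 CPM. The groups did not overlap, and Laptm5 rose by 0.97 over control IgG (1.96-fold, interval 1.68 to 2.29, edgeR adjusted p = 1.9e-06) and by 1.09 over PBS (adjusted p = 7.97e-08). In the cortex, 49.5, 51.3, 45.1 and 46.2 CPM with the antibody compared with 30.8 to 36.8 CPM with control IgG and 29.4 to 32.4 CPM with PBS. The log2 fold changes were 0.48 and 0.64 (adjusted p = 0.00604 and 0.000219).

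Coro1a, the actin regulator coronin 1A (ENSMUSG00000030707.15, chromosome 7, 126699773 to 126707787, minus strand), did not follow the other genes. It stood at 91.8, 103, 82.1 and 85.5 CPM in antibody hippocampi, at 75.4, 82.3, 83.9 and 83.5 CPM with control IgG, and at 73.4, 73.5, 63.5, 76.4 and 80.2 CPM with PBS. The antibody and control IgG libraries overlapped, with a log2 difference of 0.15 and an interval of -0.04 to 0.34 (edgeR adjusted p = 0.342). Against PBS the hippocampal difference was 0.30 (adjusted p = 0.0469), and the call was lost without any single library of PBS mice 14, 32 or 33 or antibody mice 8, 9 or 17 (adjusted p = 0.0525 to 0.221). In the cortex Coro1a stood at 113, 125, 97.6 and 104 CPM with the antibody, at 109 to 120 CPM with control IgG and at 79.0 to 111 CPM with PBS. The cortical differences were -0.06 (interval -0.24 to 0.12, adjusted p = 0.822) and 0.15 (interval -0.03 to 0.33, adjusted p = 0.664). Coro1a shares 26 exon bases with Bola2 on the opposite strand, which held 286 to 852 counts per library against 1827 to 5776 for Coro1a.

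**Figure D2:**
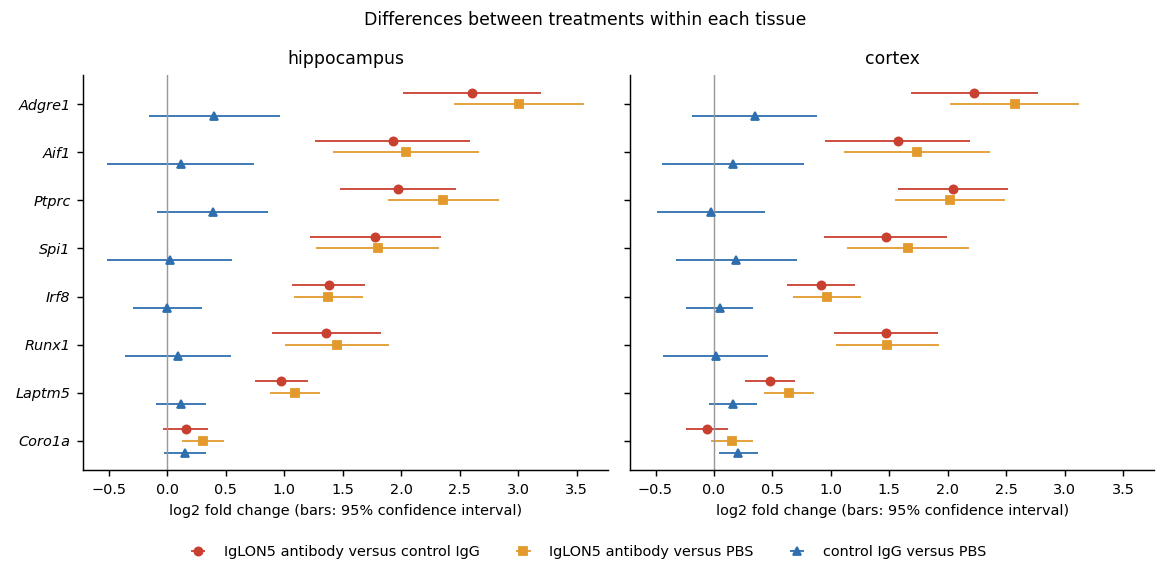
Log2 fold change of each gene between treatments in the hippocampus (left) and cortex (right), with bars for the 95% confidence interval from edgeR. The intervals of both antibody comparisons lie to the right of 0 for Adgre1 to Laptm5 in each tissue. For Coro1a they include 0 except against PBS in the hippocampus (0.12 to 0.48), and those of control IgG against PBS include 0 for all genes but Coro1a in the cortex (0.04 to 0.38).

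In the hippocampus, 7 of the 8 genes were higher with the antibody than with control IgG, and 6 of them with a fold above 2. Among all tested genes, 4.23% were higher and 2.21% were also above that fold. Against PBS it was 8 genes, 7 of them above a fold of 2, beside 3.81% and 2.56% of all genes. In the cortex 7 genes were higher than with control IgG and 5 of them above a fold of 2 (3.01% and 2.14% of all genes), and 7 and 5 were so against PBS (2.97% and 2.24%). The median log2 fold change of the 8 genes was 1.58 and 1.62 in the hippocampus and 1.47 and 1.57 in the cortex, whereas that of all genes lay between -0.02 and 0.00. Every antibody library lay above every control IgG library for 7 genes in each tissue (6.68% of all genes in the hippocampus and 3.68% in the cortex). Against PBS this held for 8 genes in the hippocampus and 7 in the cortex (4.49% and 3.14% of all genes). The comparisons with control IgG and with PBS share their antibody libraries and are therefore not independent.

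The calls changed with the mice compared. All antibody mice carry numbers from 8 to 17, whereas control mice carry numbers from 10 to 75, and within mice 8 to 17 the calls fell to 2 genes (Irf8 and Laptm5) against control IgG in the hippocampus and to 0 in the other 3 comparisons, with 2 control IgG hippocampi, 3 control IgG cortices and 1 PBS mouse left. Of all genes tested in these mice, 0.277% were higher against control IgG and 0% against PBS in the hippocampus, and 0.0512% and 0% in the cortex. Within these mice the log2 fold changes in the hippocampus against control IgG were 2.65 for Adgre1 and 1.81 for Aif1 (edgeR adjusted p = 0.0597 and 0.176). In the cortex against control IgG, Adgre1 was at 2.21 (2.23 in all mice) and Aif1 at 1.515 (1.57). Against PBS, Adgre1 in the hippocampus was at 2.99 (3.01). Also against PBS, Aif1 in the hippocampus was at 1.51 (2.04), Laptm5 there at 0.82 (1.09) and Runx1 in the cortex at 1.81 (1.48). The numbers are not described as batches in the labels, and their part in the calls was not tested further. Without the control IgG hippocampi of mice 10 and 37, 7 genes were higher than with control IgG (1.2% of all genes), with Adgre1 at 2.49 (adjusted p = 0.000808) and Aif1 at 1.83 (edgeR adjusted p = 0.0316). With the composition score as a covariate, Aif1 was at 1.47 and did not pass (adjusted p = 0.0799), and the other 6 did (0.987% of all genes).

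Between the control groups none of the 8 genes passed the test. In the hippocampus 0 of 8 passed with control IgG against PBS (0.192% of all genes in either direction), and in the cortex 0 of 8 (0% of all genes) did. At an unadjusted p under 0.05 this was 0 genes in the hippocampus and 1 in the cortex, Coro1a at 0.21 (edgeR adjusted p = 0.509), and DESeq2 also called 0 in each tissue. The intervals leave room for differences, for example -0.16 to 0.96 for Adgre1 and -0.09 to 0.86 for Ptprc in the hippocampus.

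In PBS mice, 7 of the 8 genes did not pass between cortex and hippocampus, at log2 differences of -0.07 to 0.24. Coro1a was higher in the cortex by 0.43 on the log2 scale (interval 0.26 to 0.60, edgeR adjusted p = 0.000249), although its libraries overlapped, and 26.7% of all genes differed between the tissues in either direction. Neurons also express Coro1a, and cell types were not separated here. The difference between the hippocampal and the cortical response to the antibody passed for 0 of the 8 genes, against control IgG (0% of all genes) and against PBS (0.00493% of all genes), and DESeq2 called 0 as well. At an unadjusted p under 0.05 the response to the antibody over control IgG differed for Laptm5, by 0.49 (interval 0.18 to 0.80, adjusted p = 0.246), and for Irf8, by 0.46 (interval 0.04 to 0.89, adjusted p = 0.426), both larger in the hippocampus. Over PBS it did so for Laptm5 alone, by 0.45 (interval 0.14 to 0.75, adjusted p = 1).

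The antibody mice followed the same order for several genes in part. Mouse 9 was the highest in both tissues for Adgre1, Aif1, Laptm5 and Coro1a, and mouse 8 was the highest in both tissues for Ptprc. Mouse 17 was the lowest in the hippocampus for 7 genes, and mouse 16 the lowest in the cortex for 6. For Adgre1, Aif1 and Ptprc, mouse 16 had the largest difference between its tissues, with the hippocampus above the cortex by 1.58 on the log2 scale for Adgre1, 1.18 for Aif1 and 1.22 for Ptprc. Its difference was also the largest for Spi1 (0.75), Irf8 (0.65) and Runx1 (0.47), but not for Laptm5 and Coro1a. In mouse 8, Adgre1, Aif1 and Ptprc were instead lower in the hippocampus, by log2 differences of -0.54, -0.23 and -0.53.

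**Figure D3:**
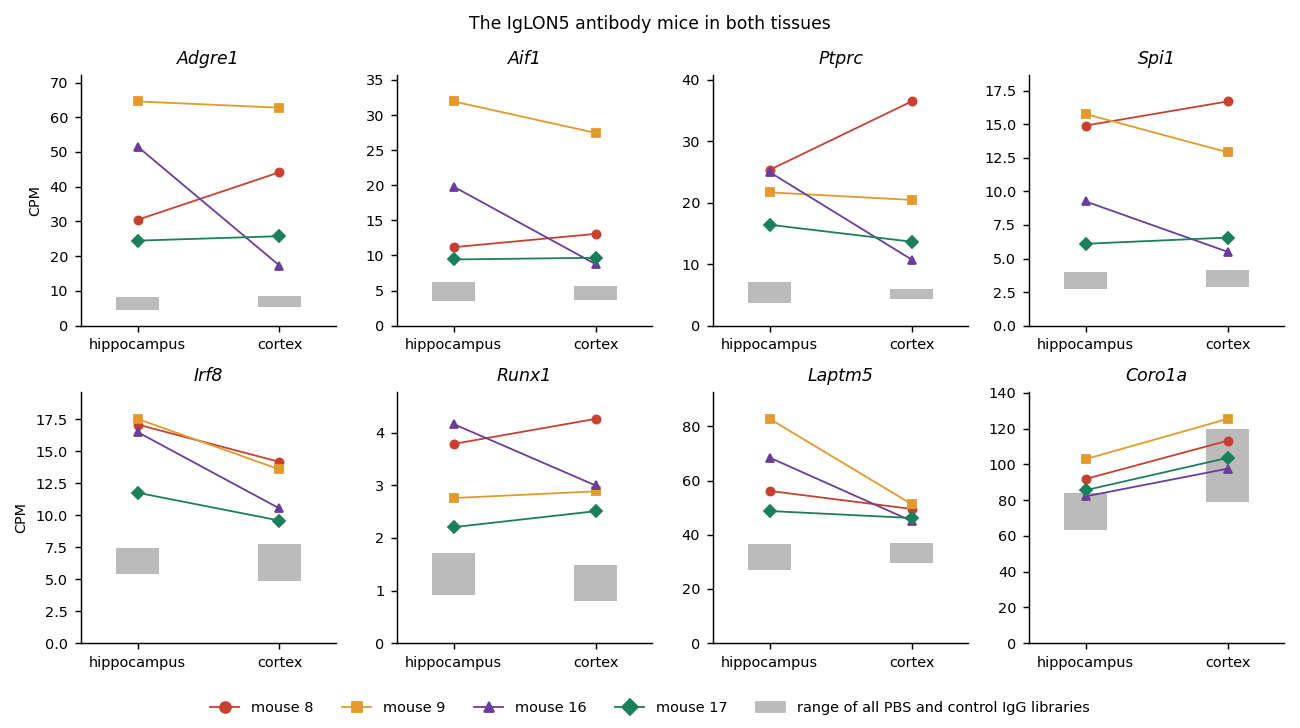
Level (CPM) of each gene in the hippocampus and cortex of the 4 IgLON5 antibody mice, joined by the number in the sample titles, which the labels do not explain, with grey bars for the range of all PBS and control IgG libraries of that tissue. Mouse 9 is highest for Adgre1 and Aif1 in both tissues, mouse 8 for Ptprc, and mouse 16 falls from hippocampus to cortex for every gene but Coro1a.

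Whether the genes rose in proportion was asked through the log2 ratio of each gene's count to that of Aif1 in the same library, compared by an exact permutation test, two-sided, with 14 tests adjusted together. In the hippocampus, the ratio of Adgre1 to Aif1 was 1.45, 1.01, 1.38 and 1.38 in the antibody mice and 0.29, 0.50, 0.76 and 0.70 with control IgG, a difference of 0.74 without overlap. Coro1a moved the other way, from 4.11 ± 0.21 to 2.49 ± 0.73 (SD, n = 4 per group), and so did Laptm5, from 2.79 ± 0.11 to 1.96 ± 0.47. All 3 differences reached the smallest p the exact test allows with 4 against 4 libraries (0.0286), and the adjusted value was 0.0635, so none passed. In the cortex the ratio to Aif1 differed by 0.62 for Adgre1, -0.96 for Laptm5 and -1.502 for Coro1a (exact permutation p = 0.0159, adjusted p = 0.0635 each) and by -0.53 for Irf8 (exact p = 0.0317, adjusted p = 0.0635). In the hippocampus that of Irf8 differed by -0.40 (exact p = 0.314). Without antibody mouse 9 the Irf8 difference was -0.24 in the cortex and -0.13 in the hippocampus. The ratios of Ptprc, Spi1 and Runx1 to Aif1 overlapped between the groups in both tissues, with exact p values from 0.318 to 1. The sign of the difference changed with the antibody mouse left out for Spi1 in both tissues, for Ptprc in the hippocampus and for Runx1 in the cortex. Their spread among antibody mice was wide, for example 0.44 ± 0.75 for Ptprc in the hippocampus against 0.25 ± 0.06 with control IgG.

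**Figure D4:**
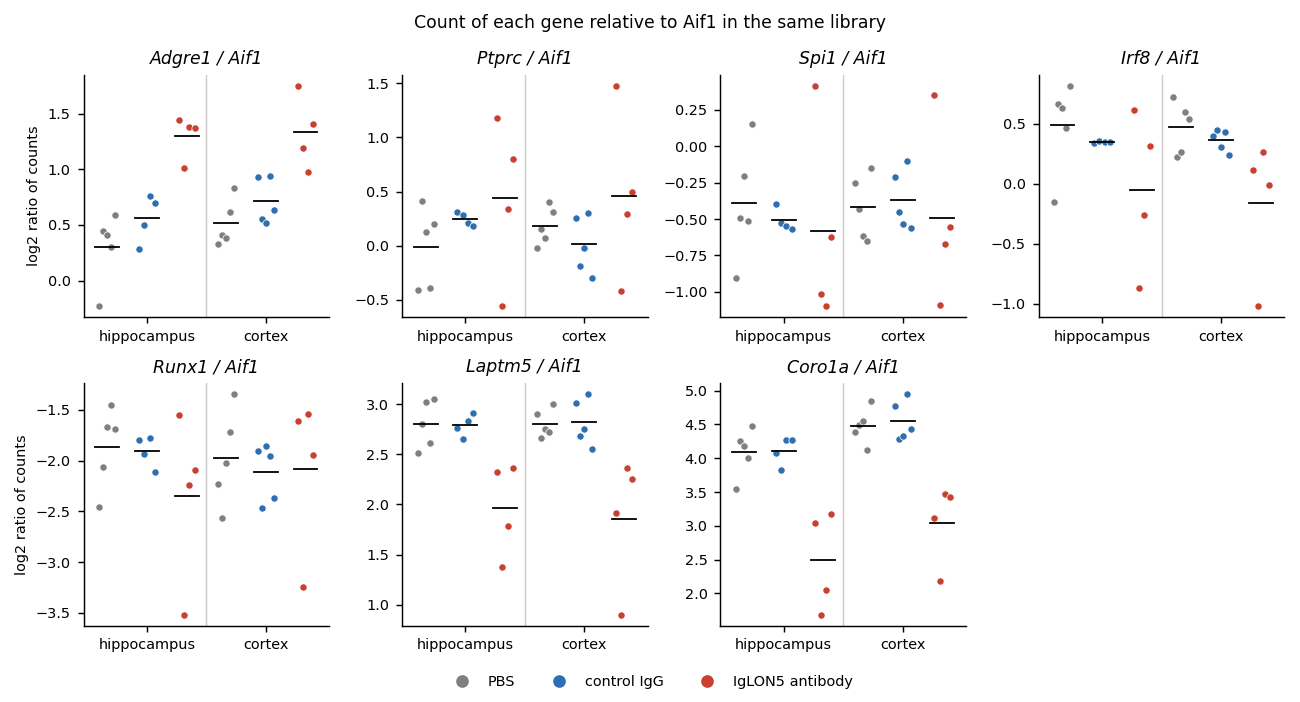
Log2 ratio of the count of each gene to the count of Aif1 in the same library, by tissue and treatment (points are libraries, black lines group means). The IgLON5 antibody libraries lie above those of control IgG for Adgre1 and below them for Laptm5 and Coro1a in both tissues, and they spread widely for Ptprc, Spi1 and Runx1.

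Per kilobase of annotated exon, Coro1a was the highest of the 8 genes in PBS hippocampi, at 26.4 ± 2.23 CPM per kb (SD, n = 5). Laptm5 followed at 7.95 ± 0.912, Aif1 at 2.87 ± 0.759, Adgre1 at 1.64 ± 0.135, Spi1 at 1.22 ± 0.175 and Irf8 at 0.854 ± 0.0671 CPM per kb. Ptprc at 0.234 ± 0.0344 and Runx1 at 0.0991 ± 0.0256 CPM per kb were the lowest, and both have long merged exons (18313 and 12025 bases), which lowers this scale. In antibody hippocampi the order of Adgre1 and Aif1 was the reverse, at 13.2 ± 5.74 and 11.8 ± 6.72 CPM per kb (n = 4), a gap within their spread, and both were then close to Laptm5 at 16.9 ± 3.93 CPM per kb. Coro1a stayed on top at 32.6 ± 3.29 CPM per kb.

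Lists of genes that work with these 8 were counted in the same fit. The list of myeloid transcription factors, 16 of them tested, also holds factors found in lymphocytes. Of the 16, 7 were higher with the antibody than with control IgG in the hippocampus and 5 in the cortex, with 0 lower. Of all genes, 4.23% were higher and 2.78% lower in the hippocampus, and 3.01% and 0.449% in the cortex. The largest in the hippocampus were Spib, a relative of PU.1 found in B cells and plasmacytoid dendritic cells, at 3.50 (edgeR adjusted p = 0.000118), Irf4, a factor of B cells and plasma cells, at 2.67 (adjusted p = 9.94e-05), and Runx3, a relative of Runx1 found in lymphocytes, at 2.54 (adjusted p = 0.0452). Runx3 was scarce and varied widely, at a mean of 0.623 CPM (SD 0.686) in antibody hippocampi and 0.0957 CPM (SD 0.0744) in control IgG hippocampi. In the cortex Spib and Runx3 passed too, whereas Irf4 was at 1.25 (adjusted p = 0.0719). Another list, of 10 genes, was named for the CSF1R and TYROBP receptors but also holds chains of other receptors. Of these 10, 9 were higher in the hippocampus and 6 in the cortex. It was led in the hippocampus by Csf2rb, the shared receptor chain for GM-CSF, at 2.43 (adjusted p = 0.000355), Fcer1g, the adaptor of Fc receptors, at 1.999 (adjusted p = 1.75e-05), and Itgb2 (CD18) at 1.77 (adjusted p = 6.7e-07).

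Of 13 tested substrates and partners of CD45, 9 were higher in the hippocampus and 8 in the cortex, again with 0 lower (4.23% and 3.01% of all genes were higher). Fgr, a kinase of the SRC family, was at 3.41 (edgeR adjusted p = 0.00532) in the hippocampus, and the phosphatase gene Ptpn6 (SHP-1) was at 2.14 (adjusted p = 1e-06). Of 15 leukocyte actin regulators, the group nearest to Coro1a in function, 13 were higher in the hippocampus and 14 in the cortex, with a median log2 fold change of 1.295 and 1.17 beside 0.15 and -0.06 for Coro1a itself. In the hippocampus Rac2, a small GTPase of blood cells, was at 2.65 (adjusted p = 3.26e-05), Hcls1, a cortactin relative, at 1.91 (adjusted p = 2.12e-05), and Lcp1 (L-plastin) at 1.71 (adjusted p = 0.000109). Of a list of 20 paralogs of the 8 genes, which does not include the relatives counted among the transcription factors above (Spib, Irf4 and Runx3), 3 were higher in each tissue, and their median was 0.16 in the hippocampus and 0.03 in the cortex. In the hippocampus these were Irf7 at 1.66 (adjusted p = 0.0423), Coro1b at 0.33 (adjusted p = 0.0122) and Coro2b at 0.30 (adjusted p = 0.0221). Coro2b did not pass there against PBS (0.03, edgeR adjusted p = 0.917). Its hippocampal mean was 231 CPM with the antibody, 226 CPM with PBS and 187 CPM with control IgG. Against PBS, the numbers higher were 7, 9, 9, 14 and 2 in the hippocampus and 4, 7, 9, 13 and 4 in the cortex, in the order of the lists above, with 0 lower in any (of all genes, 3.81% and 2.97% were higher, and 0.474% and 0.074% lower). With control IgG against PBS, 0 genes of these lists passed in either tissue.

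Over the 27 libraries, the deviations from the 6 group means were compared between genes as a description. Those of Adgre1 and Aif1 correlated at r = 0.85, and at 0.44 in the 19 control libraries. The genes most like Adgre1 were Grn, the gene of progranulin, and Rac2 (r = 0.89 each), Cd72 (0.88), Fcer1g (0.86) and Ptpn6 (0.86). Those most like Aif1 were Ly86 (0.94), the complement genes C1qb (0.90) and C1qc (0.89), Slc25a45 (0.89) and Cd52 (0.89). In the control libraries alone the 5 for Aif1 kept r of 0.70 to 0.80, whereas those for Adgre1 other than Grn (0.69) lay between 0.28 and 0.46. Points of a correlation share the depth and tissue composition of their library, and the antibody mice hold most of the spread.

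Markers of the cell types that can carry these genes moved with them in part, beside 4.23% of all genes higher in the hippocampus and 3.01% in the cortex against control IgG. The summed level of 10 homeostatic microglia genes was 250 to 431 CPM in antibody hippocampi and 223 to 268 CPM in control IgG hippocampi, and 235 to 302 against 234 to 293 CPM in the cortex. Of these 10, 4 were higher with the antibody than with control IgG in the hippocampus (among them Tmem119, Fcrls and Olfml3, at 0.67 to 0.71) and 0 in the cortex, 1 (Slc2a5) was lower in each, and P2ry12 was at -0.37 and -0.43 (edgeR adjusted p = 0.241 and 0.213). Summed over 7 monocyte genes the level was 26.8 to 48.4 CPM against 24.3 to 31.6 CPM in the hippocampus and 26.5 to 58.6 against 22.1 to 26.1 CPM in the cortex. PBS sums were 27.9 to 33.1 CPM in the hippocampus and 24.5 to 29.1 CPM in the cortex. Of the antibody mice, only mouse 8 lay above these PBS ranges. Ly6c2, of inflammatory monocytes, was higher in both (3.81 and 4.63, adjusted p = 0.000877 and 0.00029), and the list had 1 of 6 tested genes higher in the hippocampus and 5 of 6 in the cortex. The median log2 fold change of the 6 was 2.33 and 3.29, whereas Vcan, also expressed outside monocytes, was at -0.01 and 0.06. Of 7 tested border macrophage genes, 0 were higher and 1, Lyve1, was lower in each tissue (-1.81 and -1.35, adjusted p = 0.000581 and 0.00426).

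Some genes of B, plasma and T cells were also higher with the antibody, and Ptprc, Laptm5 and Coro1a are expressed by lymphocytes too. The 8 B cell genes summed to 3.72 to 10.7 CPM in antibody hippocampi against 1.02 to 1.67 CPM with control IgG, and to 2.60 to 8.64 against 1.09 to 1.43 CPM in the cortex, with 5 and 3 of 7 tested genes higher. The 6 plasma cell genes summed to 8.56 to 89.8 CPM against 4.08 to 5.38 CPM in the hippocampus and to 8.95 to 36.9 against 4.04 to 5.18 CPM in the cortex, with 3 and 1 of 5 higher. Of 6 tested T cell genes, 2 and 1 were higher, and of 5 tested neutrophil genes 0 in each tissue, and Ly6g, at 0 in all antibody cortices, was the only gene of these lists at 0 throughout a group. Mouse 8, the highest for Ptprc, also had the highest monocyte sum in both tissues (48.4 and 58.6 CPM) and the highest B cell sum (10.7 and 8.64 CPM). Its neutrophil sum was 8.37 and 14.9 CPM, against 0.676 to 2.72 CPM in the other antibody mice, and its T cell and border macrophage sums were also the highest of the group in both tissues. Mouse 9, the highest for Adgre1 and Aif1, had the lowest sum of the antibody group for monocytes (26.8 and 26.5 CPM), B cells (3.72 and 2.60 CPM) and plasma cells (8.56 and 8.95 CPM), and the highest sum of homeostatic microglia genes in the hippocampus (431 CPM). In the cortex its homeostatic sum was 272 CPM, below mouse 16 (302 CPM) and mouse 17 (280.5 CPM). Its border macrophage sum was 4.39 CPM in the hippocampus and 4.37 CPM in the cortex, against 14.1 to 32.1 and 25.7 to 41.9 CPM in the other antibody mice. The part of these cell types in the levels of the 8 genes was not tested.

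**Figure D5:**
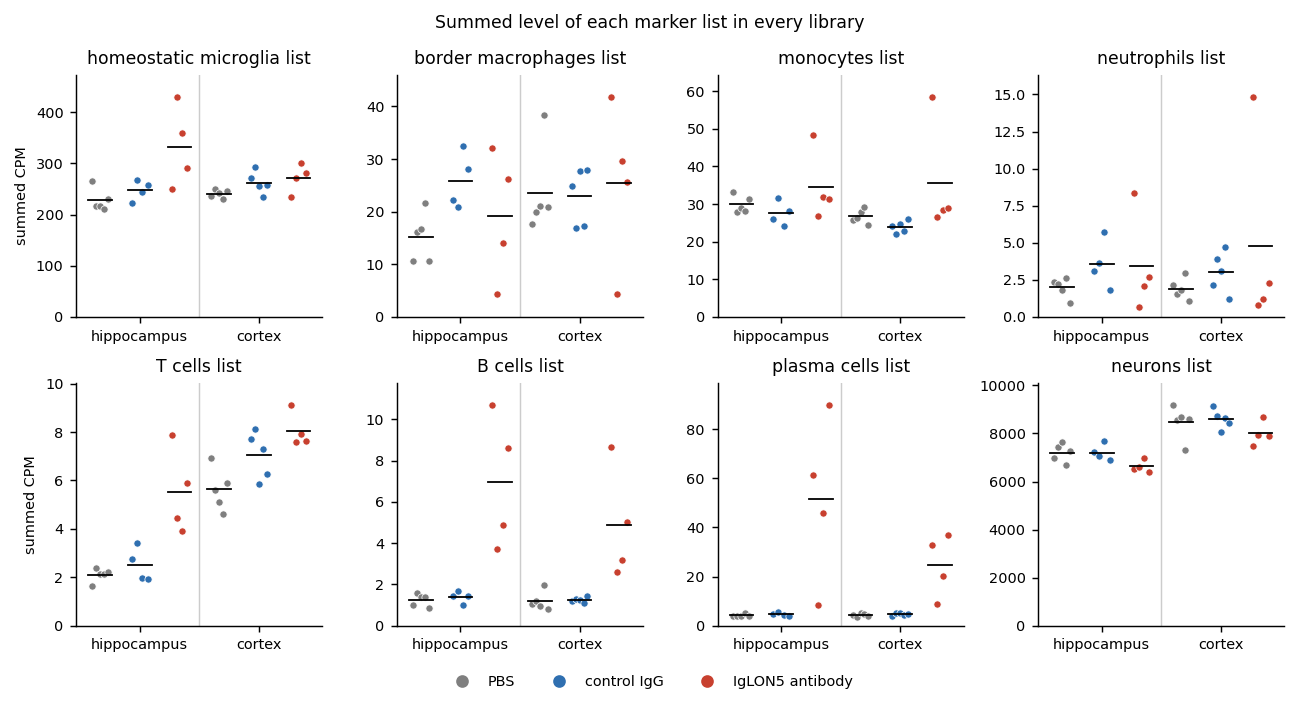
Summed level (CPM) of the marker genes of 8 cell types in every library, by tissue and treatment (points are libraries, black lines group means). B cell and plasma cell sums of all IgLON5 antibody libraries lie above the controls, whereas the sums for homeostatic microglia and neurons overlap between the antibody and control libraries in both tissues.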

How the data were processed

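RNA-seq was measured in 27 libraries of mouse cortex and hippocampus, assigned to tissue, treatment and mouse from the labels. The authors prepared stranded mRNA libraries, aligned paired-end reads to GRCm38 with STAR, and deposited raw counts per gene without normalization. The counting program, the annotation and the strand setting are not given in the sources used here. All 27 columns were assigned and 0 were left out. After a filter of 10 counts in 4 or more libraries, each gene was fitted with edgeR 4.0.16 in R 4.3.3 (TMM factors, glmQLFit and glmQLFTest, 6 group terms, Benjamini-Hochberg adjustment), after the code was tested on simulated data. Log2 CPM used a prior count of 1 and ratios a pseudocount of 0.5 counts. Exact permutation tests used scipy 1.17.1. Gene positions and exon lengths are from GENCODE M21 (GRCm38) and sequences from RefSeq (GRCm38.p6).

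The 8 genes and all gene lists were chosen with earlier results of these data known. All 8 genes are named. From each list of related genes, the 3 with the largest absolute log2 fold change in antibody against control IgG hippocampi, among those past the threshold, are named, and for Adgre1 and Aif1 the 5 genes with the highest Pearson correlation. Some genes that this rule would name are not reported here. Single marker genes and single mice were picked for the text with their values in view. The tissue composition score used 100 genes per side with a mean log2 CPM above 3. The alternatives were edgeR with RLE size factors, DESeq2 1.42.0, other count filters, only the groups compared, only mice 8 to 17, the composition score as covariate, the mouse number as block, and each library left out in turn. Leaving out control IgG hippocampi 10 and 37 together was added after seeing the data. Nothing in the labels says more of how the animals were handled, so p values measure the spread between these samples. No 2 libraries of a group repeated each other (over 48 pairs, chi-square divided by its degrees of freedom was at least 4.82).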

Additional observations from a re-analysis of the deposited data

Results flagged for a closer look

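Of 48 combinations of gene and group, 3 held a library that stood apart from the rest of its group by Dixon's criterion, which chance alone meets in about 1 of 20 groups. All 3 were high values in control hippocampi. In control IgG hippocampi, mouse 15 was high for Aif1 (5.79 CPM, the other 3 at 4.30 to 4.44 CPM) and for Irf8 (7.43 CPM, the others at 5.48 to 5.6 CPM). In PBS hippocampi, mouse 38 was high for Runx1 (1.72 CPM, the others at 0.919 to 1.13 CPM). All of them lay below the lowest IgLON5 antibody library of the same gene and tissue.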

How the results depend on the processing

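Within mice 8 to 17, the number of the 8 genes higher with the antibody fell from 7 to 2 against control IgG and from 8 to 0 against PBS in the hippocampus, and from 7 to 0 against both controls in the cortex. That setting leaves 1 PBS mouse, which is assumed to vary like the other groups. With a fold above 2 required, the 1 gene different between cortex and hippocampus of PBS mice became 0. For single genes, 30 values lost their call under other settings and 6 with a library left out, and none turned its direction while called. Of these 36 values, 27 concern mice 8 to 17 and 1 the composition covariate (Aif1 in the hippocampus against control IgG). The remaining 8 concern Coro1a in the hippocampus against PBS, 2 of them under the lower count filter and a fit of the compared groups alone (adjusted p = 0.0942 and 0.0798). No label states that the mouse numbers pair the tissues. Among hippocampi of the same treatment, 10 of the 13 cortices correlated best with that of their own number. The correlations of deviations over these 13 mice ran from -0.05 to 0.44, with 8 above 0.1. The main fit held no term for the mouse. With the mouse number as a block, the members called stayed at 1 between the tissues of PBS mice and at 0 and 0 for the difference of the responses, and 5925, 2 and 2 genes of all were called. Correlations with Adgre1 and Aif1 were lower in the control libraries, at 0.69, 0.32, 0.28, 0.46 and 0.42 for Grn, Rac2, Cd72, Fcer1g and Ptpn6, and at 0.76, 0.80, 0.75, 0.74 and 0.70 for Ly86, C1qb, C1qc, Slc25a45 and Cd52. Runx1 had the fewest counts of the 8 genes, with 19 in its lowest library, and an effect of depth on its results was not tested.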
